A study of Mus musculus with 16 samples.

Results

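The comparison set primary murine alveolar type II cells after 24 h in normoxic culture (21% O2) against the same kind of cells after 6 h. Its members were the 8 arrays titled as normoxia, of 16 in the series, with 4 arrays at each time. The other 8 arrays held cells in hyperoxia (85% O2) for 6 h or 24 h and entered only to test whether a change over time differed between the oxygen groups. All cells came from lungs of C57BL/6 mice, and the labels name no agent, allele or treatment other than the oxygen level. The age of the mice, the isolation of the cells, the culture medium and the time in culture before the first point are not given in the sources used here. The labels do not say whether replicates came from separate animals or cultures, so the p-values measure only the spread between these arrays, which may be technical. Each array carried Cy3-labelled copies of the total RNA of 1 sample.

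Type II cells make pulmonary surfactant, the film of phospholipid and surfactant proteins that lowers surface tension in the alveolus, and they store it in lamellar bodies. They also move sodium and water out of the airspace and serve as the progenitors of the flat type I cells. Isolated type II cells are known to lose much of this programme when cultured on a flat surface. Cells short of amino acids or under endoplasmic reticulum (ER) stress switch on the integrated stress response, in which phosphorylation of the initiation factor eIF2 slows most translation but favours that of the transcription factor ATF4. ATF4 then raises genes for amino acid import, amino acid synthesis and tRNA charging.

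Levels are given throughout as log2 signal relative to the array's 75th percentile, so 0 is the 75th percentile of that array and 1 unit is a factor of 2. Changes are log2 fold changes, 24 h less 6 h, with their SE and n = 4 arrays per time. A gene is said to have risen or fallen where limma's adjusted p was under 0.05. The 75th percentile of the signal was 973 to 1021 on the 6 h arrays and 556 to 747 on the 24 h arrays. Between 63.5% and 67.0% of probes were well above background at 6 h and between 53.7% and 61.3% at 24 h, the lowest being 24 h replicate 3. Every 6 h array lay on 1 slide and every 24 h array on another, scanned separately, so no value below can separate time from slide (the effects cannot be told apart). Correlations between arrays were 0.993 to 0.996 within 6 h, 0.991 to 0.993 within 24 h and 0.979 to 0.986 between the times. Principal component 1, with 56.5% of the variance of the 8 arrays, separated the times: the 6 h scores ran from -57.5 to -37.8 and the 24 h scores from 42.7 to 56.2.

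Of 25408 genes tested, 5237 (20.6%) rose and 5980 (23.5%) fell, together 44.1%. At least 2-fold changes were less even, with 475 rises (1.87%) and 1694 falls (6.67%). At least 4-fold, 53 genes rose and 195 fell. The 24 h arrays lay all above the 6 h arrays for 5568 genes (21.9%) and all below them for 5633 (22.2%). A list of genes with a share of called members near these percentages is therefore not set apart by its count. The median change over all genes was -0.02. It moved to 0.10 with background correction by normexp, to 0.19 with the array median as the scale and to -0.22 on the scale of the spike-in probes, so changes of that size depend on the scale. The split of calls moved with it, from 5237 up and 5980 down to 8512 and 3645, 10101 and 3409, and 1157 and 7511, respectively.

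The changes also depended on how bright a gene was. Among the 5033 genes with a mean level over the 16 arrays at or below -4, 5.21% rose and 36.0% fell, and their median change was -0.43. Among the 1082 genes above 6, 70.2% rose and 1.66% fell, with a median of 0.25. The intervals between moved step by step, from 11.6% risen and 32.4% fallen between -4 and -2 to 33.9% and 9.24% between 4 and 6. Of genes with a RefSeq symbol, 298 were well above background on 4 of 4 arrays at 6 h and on 0 of 4 at 24 h, and 9 the other way round. The part of signal strength in these dim falls was not tested.

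**Figure D1:**
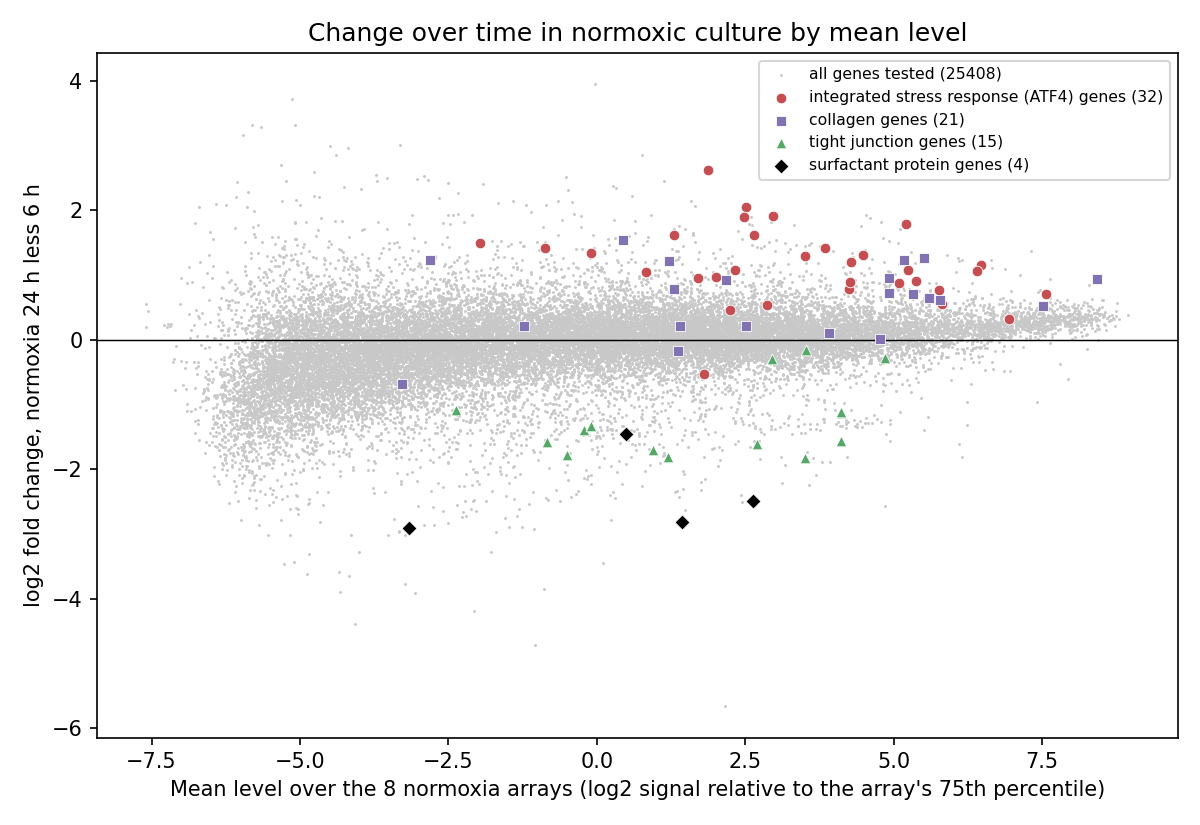
Log2 fold change of each of the 25408 genes tested (24 h less 6 h) against its mean level over the 8 normoxia arrays, with 4 gene lists marked. The 4 surfactant protein genes and the tight junction genes lie below 0, all but 1 of the integrated stress response genes lie above it, and the grey cloud tilts downward at low levels.

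The surfactant protein genes fell in all 4 cases, and each had all 24 h arrays below all 6 h arrays. Sftpc, which encodes the hydrophobic protein made only by type II cells in the lung, had levels of 4.10, 4.45, 3.48 and 3.50 at 6 h and 0.90, 2.47, 0.62 and 1.54 at 24 h. Replicate 2 was the highest at both times, and the groups did not overlap. The change was -2.5 ± 0.43, a 5.64-fold fall (adjusted p = 0.000457). Because each array measures a bulk sample, fewer cells of a type and less RNA per cell cannot be told apart, here or for any gene below.

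Sftpa1, a collectin that binds microbes in the airspace, went from -1.23, -1.39, -2.14 and -2.05 to -4.97, -4.26, -5.22 and -4.01. It was well above background on 4 arrays at 6 h and on 2 at 24 h, and it fell by 2.91 ± 0.34 (adjusted p = 2.71e-05). Sftpd, the other collectin, stood at 2.06, 3.1, 3.09 and 3.13 and then at -0.21, 0.41, -0.28 and 0.19, a change of -2.81 ± 0.30 (adjusted p = 1.46e-05). The 6 h array of replicate 1 was the lowest of its group and still 1 unit or more above every 24 h array. Sftpb, needed for surfactant films and lamellar bodies, had the smallest change of the 4, from 1.14, 1.76, 0.84 and 1.12 to -0.46, -0.03, -0.32 and -0.17, or -1.46 ± 0.25 (adjusted p = 0.000423). The normoxia changes with normexp background correction were -2.49 for Sftpc, -1.39 for Sftpa1, -2.79 for Sftpd and -1.32 for Sftpb. In hyperoxia the changes over the same interval were -2.51 for Sftpc, -2.37 for Sftpa1, -2.61 for Sftpd and -2.72 for Sftpb. Only the Sftpb change differed between the oxygen groups (difference -1.26 ± 0.35, adjusted p = 0.0298), against 12.3% of all genes whose changes differed.

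Genes for processing and storing surfactant fell less. Of 14 tested, 5 fell, 2 rose and 7 were not called, with a median of -0.13, and the sign of that median turned with the array median as the scale. The protease gene Ctsh, whose product trims surfactant proteins B and C, fell by 1.11 ± 0.15 with 5.35 to 5.81 at 6 h and 4.43 to 4.72 at 24 h. Adgrf5, a receptor that limits the surfactant pool, changed by -0.93 ± 0.20 and Rab38, a GTPase of lamellar body formation, by -0.77 ± 0.15. The lamellar body membrane gene Lamp3 had 4.40 to 4.55 at 6 h and 4.31 to 4.39 at 24 h, which is -0.13 ± 0.08 and was not called, while in hyperoxia it changed by -1.0 (difference adjusted p = 0.000118). Slc34a2 was not tested, since it was left out by the filter on dim probes.

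Other type II markers moved in the same uneven way, with 8 of 21 fallen, 3 risen and a median of -0.54. The lung chemokine gene Cxcl15 was well above background on 4 arrays at 6 h and 0 at 24 h, at least 3.46-fold lower at 24 h. With normexp background correction it was not called (-0.20, limma adjusted p = 0.0927). S100g, a calcium-binding protein gene, fell by 2.26 ± 0.28, and Muc1, a membrane mucin of the apical surface, by 1.39 ± 0.16. Lyz1, a lysozyme gene, fell by 1.42 ± 0.44 on levels of 2.38 to 3.17 and then 0.06 to 1.90; it has a close paralogue, so its signal may be shared. The levels of Cd74 spread from 0.03 to 1.53 at 24 h around 1.01 to 1.20 at 6 h, a change of -0.54 ± 0.37 that was not called. Fatty acid and phospholipid synthesis genes did not follow the surfactant proteins, 13 of 28 having risen and 2 fallen. Chka, the choline kinase that starts phosphatidylcholine synthesis, rose by 0.65 ± 0.08, and Elovl6, a fatty acid elongase, fell by 0.34 ± 0.10. On the spike-in scale 1 of the 28 rose and 5 fell, and their median turned from 0.19 to -0.01.

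The transcription factors of the alveolar epithelium divided into 9 that fell, 6 that rose and 6 not called, of 21. Elf3, an epithelial ETS factor, had 0.00, -0.19, 0.52 and 0.44 at 6 h and -2.01, -1.83, -1.81 and -1.51 at 24 h. The groups were more than 1 unit apart, and the change was -1.98 ± 0.19 (adjusted p = 9.73e-06). Foxa1, a pioneer factor of lung epithelium, went from 2.94, 2.83, 3.58 and 3.31 to 1.44, 1.55, 1.53 and 1.87 (-1.57 ± 0.25, adjusted p = 0.000228). Irx2 fell by 1.35 ± 0.23 and Hopx, a homeodomain factor of type I cells, by 1.39 ± 0.34. Among the risers, Cebpb changed by 0.88 ± 0.12, Cebpd by 0.73 ± 0.12, Etv4 by 0.63 ± 0.13 and Etv5, which maintains type II identity downstream of FGF signalling, by 0.61 ± 0.09. The Etv5 change in hyperoxia was 0.11, and the difference passed the test (adjusted p = 0.0188). Nkx2-1, the lung lineage factor that drives surfactant genes, was named after its values were seen. It had -1.47, -1.19, -1.17 and -1.49 and then -1.59, -0.98, -1.56 and -1.29, with overlapping groups and a change of -0.03 ± 0.17 (adjusted p = 0.914).

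**Figure D2:**
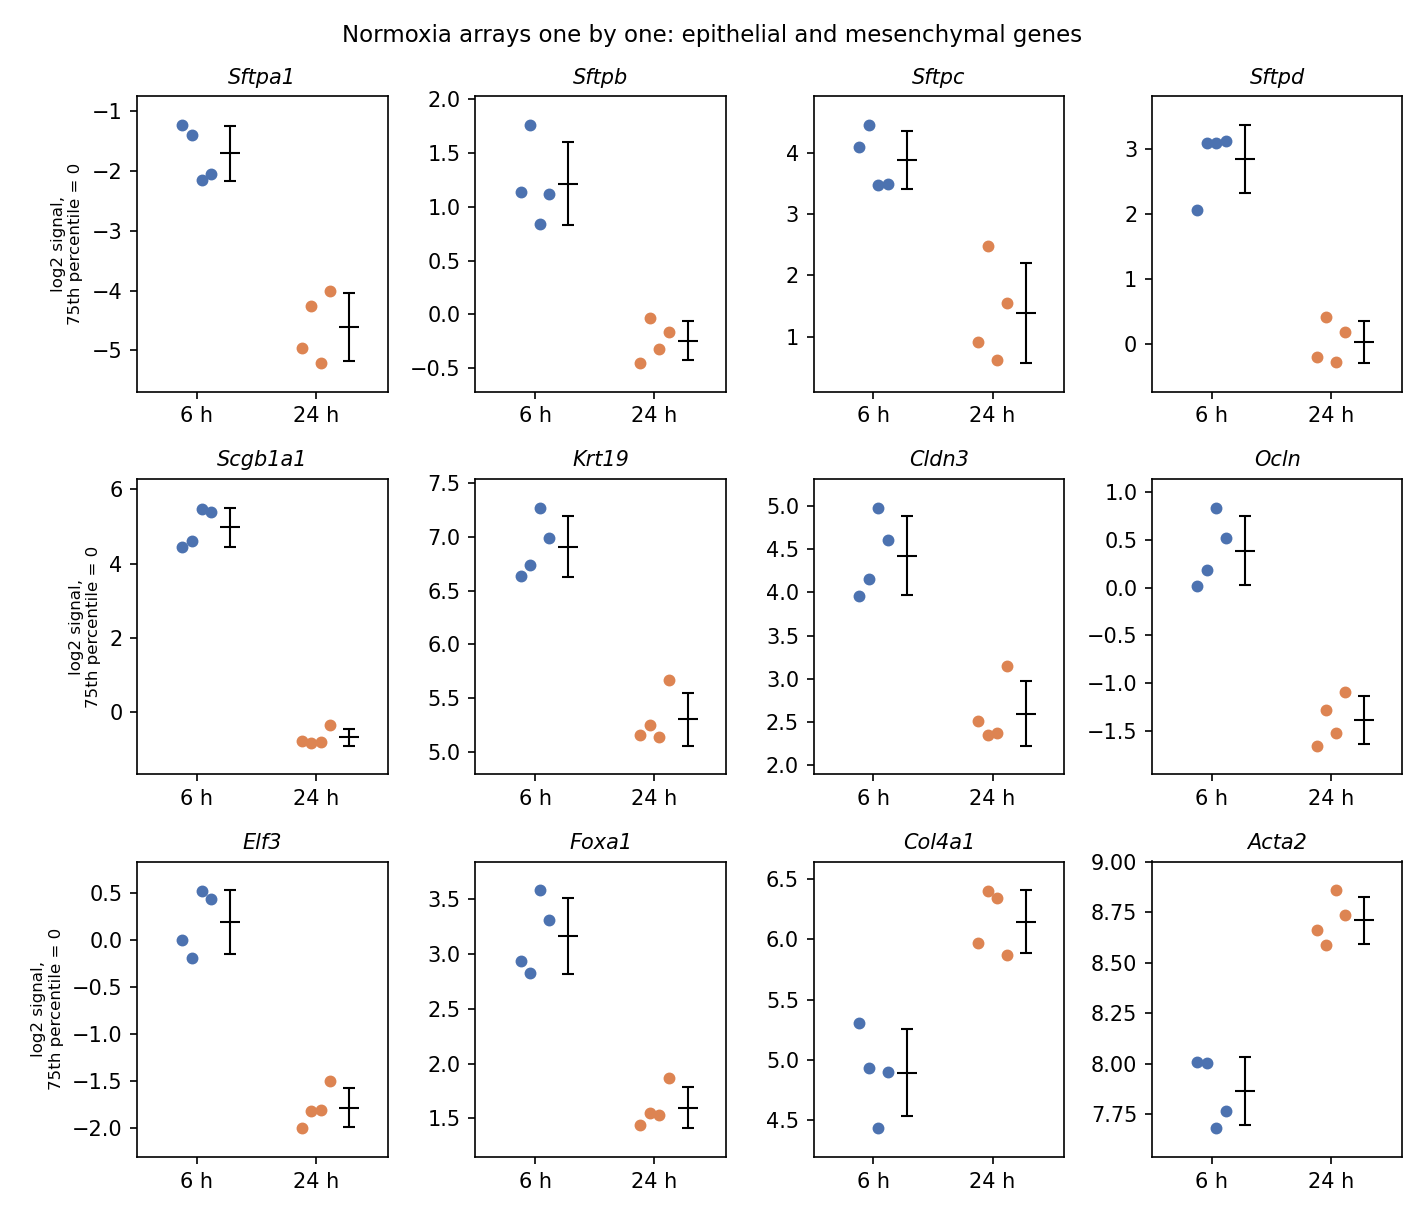
Log2 signal of 12 genes on each of the 8 normoxia arrays (dots, replicates 1 to 4 from left to right at 6 h and 24 h), with the group mean and SD as bars. The 10 epithelial genes lie lower at 24 h and Col4a1 and Acta2 higher, without overlap in any panel, and the vertical axes differ between panels.

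Type I cell markers fell more often than they rose. Of 23 tested, 10 fell and 4 rose, with a median of -0.69. Aqp5, the water channel of type I cells, stood at 3.42, 4.01, 3.54 and 3.50 at 6 h and at 1.93, 2.64, 2.23 and 2.16 at 24 h, a fall of 1.38 ± 0.25 (adjusted p = 0.000657). Clic3 fell by 1.78 ± 0.42, Tspan8 by 1.65 ± 0.23, Cldn18 by 1.59 ± 0.44 and Cyp2b10 by 1.82 ± 0.31. The risers were Sema3e (0.57 ± 0.11), Emp2 (0.37 ± 0.10), Vegfa (0.35 ± 0.13) and Pdpn, the podoplanin of type I cell membranes (0.25 ± 0.09). These last 3 changes are small beside the falls, and the list had 0 risers on the spike-in scale. Genes of the transitional state between type II and type I cells included 14 that fell and 5 that rose, of 26. Sprr1a went from 4.19, 4.41, 5.29 and 4.89 to 2.02, 2.63, 2.52 and 2.64 (-2.24 ± 0.27), Ly6a changed by -2.34 ± 0.44, and Itgb6, the epithelial activator of TGF-beta, by -1.57 ± 0.28. The p53 and stress genes of that list rose, namely Gdf15 (0.90 ± 0.14), Mdm2 (0.39 ± 0.07), Cdkn1a (0.38 ± 0.14) and Nupr1 (0.32 ± 0.09), together with Fn1 (0.49 ± 0.08). The Cdkn1a call was lost in 12 of 21 alternative settings, among them normexp, quantile normalization and the spike-in scale. Mdm2 and Nupr1 lost the call on the spike-in scale too, and Nupr1 and Fn1 with quantile normalization. Gdf15 kept its call in every setting.

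Tight junction genes had the highest share of falls of any list with at least 10 tested members. Of 15, 12 fell, all 12 at least 2-fold, and none rose, with a median of -1.40. Cldn3, a barrier claudin, had 3.96, 4.15, 4.98 and 4.60 at 6 h and 2.52, 2.36, 2.37 and 3.15 at 24 h (-1.82 ± 0.27, adjusted p = 0.000139). Ocln, occludin, had 0.02, 0.18, 0.84 and 0.51 and then -1.66, -1.28, -1.52 and -1.09 (-1.77 ± 0.23, adjusted p = 5.55e-05). Neither gene's groups overlapped. Cldn6 fell by 1.81 ± 0.29 and the scaffold gene Tjp3 by 1.70 ± 0.21. The members not called were F11r (-0.29 ± 0.11), Tjp1 (-0.29 ± 0.16) and Cldn12 (-0.16 ± 0.09), of which F11r was called in 10 and Tjp1 in 4 of 21 alternative settings. Cldn3 was the member whose change differed in hyperoxia, where it was -0.61 (difference adjusted p = 0.0486). Under every alternative scale 12 to 14 of the tight junction genes fell.

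Desmosome, keratin and ion transport genes went the same way. Of 21 adherens junction and desmosome genes, 12 fell and 1 rose, the desmosomal cadherins Dsc2 and Dsg2 by 1.84 ± 0.30 and 1.29 ± 0.20 and the cytolinker Ppl by 1.32 ± 0.24. Pkp3, a plakophilin, rose by 0.38 ± 0.12. The catenin genes Ctnna1 (0.02 ± 0.08) and Ctnnb1 (-0.10 ± 0.07) were not called. Of 15 keratin and basal cell genes, 10 fell and 1, Trp63, rose (0.42 ± 0.09). The Trp63 call was lost on the spike-in scale (0.21, limma adjusted p = 0.0979) and with the median of its probes (0.00087, limma adjusted p = 0.995). Krt10 fell by 1.92 ± 0.22, Krt20 by 1.61 ± 0.34, Itgb4, the hemidesmosome integrin, by 1.48 ± 0.24 and Krt6a by 1.44 ± 0.29. Krt19, a simple-epithelium keratin, had 6.64, 6.74, 7.27 and 6.99 at 6 h and 5.15, 5.25, 5.14 and 5.67 at 24 h, a fall of 1.61 ± 0.17 (adjusted p = 1.47e-05). By contrast Krt18 had 8.25 to 8.51 and 8.0 to 8.36, which is -0.14 ± 0.11 and was not called. In several of these genes 6 h replicates 3 and 4 stood above replicates 1 and 2, as in Krt10 with 1.05, 1.23, 1.90 and 1.6.

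Of 19 genes for ion and fluid transport, 11 fell, with a median of -0.75. Scnn1a, the alpha subunit of the epithelial sodium channel, had 2.53, 3.18, 2.72 and 2.82 at 6 h and 0.60, 2.19, 0.90 and 0.88 at 24 h. Replicate 2 was again the highest at both times, and the fall was 1.67 ± 0.39 (adjusted p = 0.00327). Slc26a9, a chloride transporter, fell by 2.44 ± 0.27 and the potassium channel gene Kcnq1 by 2.21 ± 0.39.

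Scgb1a1, the secretoglobin of club cells, had 4.46, 4.62, 5.48 and 5.39 at 6 h and -0.76, -0.82, -0.79 and -0.34 at 24 h. The change of -5.66 ± 0.25, a 50.7-fold fall (adjusted p = 3.95e-08), was the largest of any gene named here, and in hyperoxia it was -5.02 without a difference that passed the test (adjusted p = 0.29). Of 12 club and secretory markers, 7 fell and 1, the immunoglobulin transporter gene Pigr, rose (0.44 ± 0.12). Scgb3a1 fell by 4.39 ± 0.67 but was well above background on only 2 arrays at 24 h, and with normexp its change was -1.68. Bpifa1, an airway defence protein gene, was above background on 4 arrays at 6 h and 0 at 24 h, at least 6.56-fold lower, with 6 h levels of -4.25, -4.65, -0.23 and -3.65 that replicate 3 dominates. Without that array the bound was 3.31-fold, and with normexp background correction Bpifa1 was not called (-0.99, limma adjusted p = 0.207). The summed linear signal of the list, relative to each array's 75th percentile, ran from 31.3 to 57.7 for the 6 h arrays. For the 24 h arrays it ran from 10.2 to 10.8. Scgb1a1, at the levels given above, was a large part of that sum at 6 h and a small part at 24 h. The drop of the sum therefore need not hold for the other members.

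Of 14 ciliated cell markers, 8 fell and 1 rose. Foxj1, the master factor of motile cilia, had -0.02, 0.00, 1.06 and 0.27 and then -1.63, -1.37, -1.53 and -0.73 (-1.64 ± 0.27, adjusted p = 0.000296), and Tekt1, a microtubule protein of cilia, fell by 2.35 ± 0.32. Tekt1 was not well above background on all 8 normoxia arrays, and with normexp its change was -0.86. Mcidas, a cofactor that starts ciliogenesis, went against the list and rose by 1.71 ± 0.16. On the linear scale Mcidas made up 17.6 to 22.9 of the list's sum of 100 to 109 for the 6 h arrays, and 56.3 to 71.7 of the sum of 107 to 126 for the 24 h arrays. The part of these other cell types in the epithelial changes above was not tested.

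The list with the highest share of rises was the integrated stress response. Of 32 ATF4-linked genes, 31 rose, 19 of them at least 2-fold, and 1 fell, with a median change of 1.08 against -0.02 for all genes. For 30 genes all 24 h arrays lay above all 6 h arrays. The list was drawn from textbook knowledge with earlier results of these data known, so its count and the promoter share below are descriptions. Under the alternatives for processing between 27 and 31 members rose. Several lists were searched for motifs, whichever way they had moved. For this list the promoters of the members were searched over the 250 bases before the start, on both strands. The site was TTGCATCA, a composite that C/EBP and ATF proteins are known to share. It was found in 7 of the 28 members with a promoter entry (25%), and in 0.918% of all 27025 genes with an entry. Of all genes that rose 1.13% held it, and of all that fell 0.728%. Searches of other lists, over members with an entry, gave high and low shares (all genes in brackets). The interferon-stimulated response element was in 10 of 22 interferon-stimulated genes (3.46%) and the CCAAT box in 20 of 24 mitosis genes (37.5%). The sterol regulatory element was in 1 of 17 cholesterol genes (1.22%) and the serum response element in 0 of 24 immediate-early genes (0.074%). For the ATF4-linked genes too, a match describes these letters only. The 7 stretches follow, from RefSeq with GRCm38.p6 coordinates, read 5′ to 3′ on the gene's strand, with the match on either strand in capitals.
Chac1, chr2:119351019-119351086, plus strand: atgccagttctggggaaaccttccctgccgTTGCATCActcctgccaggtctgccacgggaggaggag
Vldlr, chr19:27216790-27216857, plus strand: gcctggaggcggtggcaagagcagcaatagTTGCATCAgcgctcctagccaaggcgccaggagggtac
Fgf21, chr7:45615592-45615659, minus strand: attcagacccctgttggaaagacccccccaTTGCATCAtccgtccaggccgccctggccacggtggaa
Pycr1, chr11:120643814-120643881, minus strand: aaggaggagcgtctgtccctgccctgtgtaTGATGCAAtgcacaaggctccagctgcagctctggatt
Slc7a11, chr3:50443623-50443709, minus strand: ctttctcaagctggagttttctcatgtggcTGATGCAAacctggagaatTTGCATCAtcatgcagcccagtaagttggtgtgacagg
Nupr1, chr7:126625543-126625610, minus strand: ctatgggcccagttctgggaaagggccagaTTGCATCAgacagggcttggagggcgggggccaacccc
Atf3, chr1:191183406-191183473, minus strand: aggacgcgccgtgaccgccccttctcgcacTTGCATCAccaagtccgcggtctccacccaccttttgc

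The match in these promoters starts between 200 bases (Vldlr) and 47 bases (the second match of Slc7a11) before the gene's start. Of the 7 genes 6 rose and Atf3 fell, so the site was shared by members that moved in opposite directions. Atf3, a stress-induced repressor and activator, had 2.00, 2.01, 2.17 and 2.12 at 6 h and 1.53, 1.44, 1.37 and 1.84 at 24 h, a fall of 0.53 ± 0.12 (adjusted p = 0.00242).

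Among the regulators, Ddit3, which encodes the stress transcription factor CHOP, had the largest change of the list. Its levels were 0.88, 0.64, 0.41 and 0.35 at 6 h and 3.24, 2.95, 3.32 and 3.23 at 24 h. The groups were over 2 units apart, and the rise was 2.61 ± 0.22, or 6.12-fold (adjusted p = 3.75e-06). The members that follow beyond Ddit3, Slc7a3, Cth and Vldlr were chosen after their values were seen, to cover the pathway's roles. Atf4 itself had 7.35, 7.22, 7.09 and 7.24 and then 7.99, 7.90, 7.96 and 7.84 (0.70 ± 0.09, adjusted p = 6.04e-05). Trib3, a pseudokinase that restrains ATF4 output, went from 4.16 to 4.56 at 6 h to 6.01 to 6.19 at 24 h (1.78 ± 0.25). Ppp1r15a, the phosphatase subunit that reverses eIF2 phosphorylation, rose by 1.29 ± 0.11 and Atf5 by 1.16 ± 0.11. Chac1, a glutathione-degrading enzyme, rose by 1.20 ± 0.29 and Nupr1, a small stress-induced nuclear protein, by 0.32 ± 0.09.

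Genes for amino acid import and synthesis rose beside them. Slc7a3, a carrier of cationic amino acids, had 2.05, 1.47, 1.38 and 1.06 and then 3.43, 3.69, 3.76 and 3.27 (2.04 ± 0.23, adjusted p = 2.05e-05). Slc7a11, the cystine carrier, rose by 1.49 ± 0.20 and Slc7a5, the carrier of large neutral amino acids, by 1.08 ± 0.13. Cth, which makes cysteine from cystathionine, had 2.19, 1.92, 2.02 and 1.89 and then 4.07, 3.80, 4.02 and 3.79 (1.92 ± 0.19, adjusted p = 1.09e-05). In neither Slc7a3 nor Cth did the groups overlap. Asns, asparagine synthetase, rose by 1.06 ± 0.13 from 5.75 to 6.10 at 6 h to 6.84 to 7.01 at 24 h. The serine pathway rose with its enzymes Phgdh (0.77 ± 0.08), Psat1 (0.87 ± 0.16) and Psph (1.31 ± 0.16), and so did the mitochondrial folate enzymes Shmt2 (0.79 ± 0.09) and Mthfd2 (1.41 ± 0.15) and the proline enzyme Pycr1 (1.04 ± 0.17). A secreted and a surface product rose as well, namely the hormone gene Fgf21 by 1.62 ± 0.20 and the lipoprotein receptor gene Vldlr by 1.90 ± 0.15.

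Many of these rises were smaller in hyperoxia. In hyperoxia 18 of the 32 genes rose and 2 fell over the same interval, with a median of 0.46. Of all genes tested, 25% rose and 27.4% fell there. For 18 of the 32 the hyperoxia change was lower by the test, against 5.63% of all genes. For none was it higher. Shmt2 changed by -0.52 in hyperoxia (difference adjusted p = 8.47e-06), Phgdh by -0.11 (0.000168), Slc7a5 by -0.31 (0.000156) and Fgf21 by 0.18 (0.00423). Among the regulators, Ddit3 changed by 2.52 and Atf5 by 1.08 in hyperoxia, and these 2 differences did not pass the test (-0.09 ± 0.31 and -0.08 ± 0.16).

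**Figure D3:**
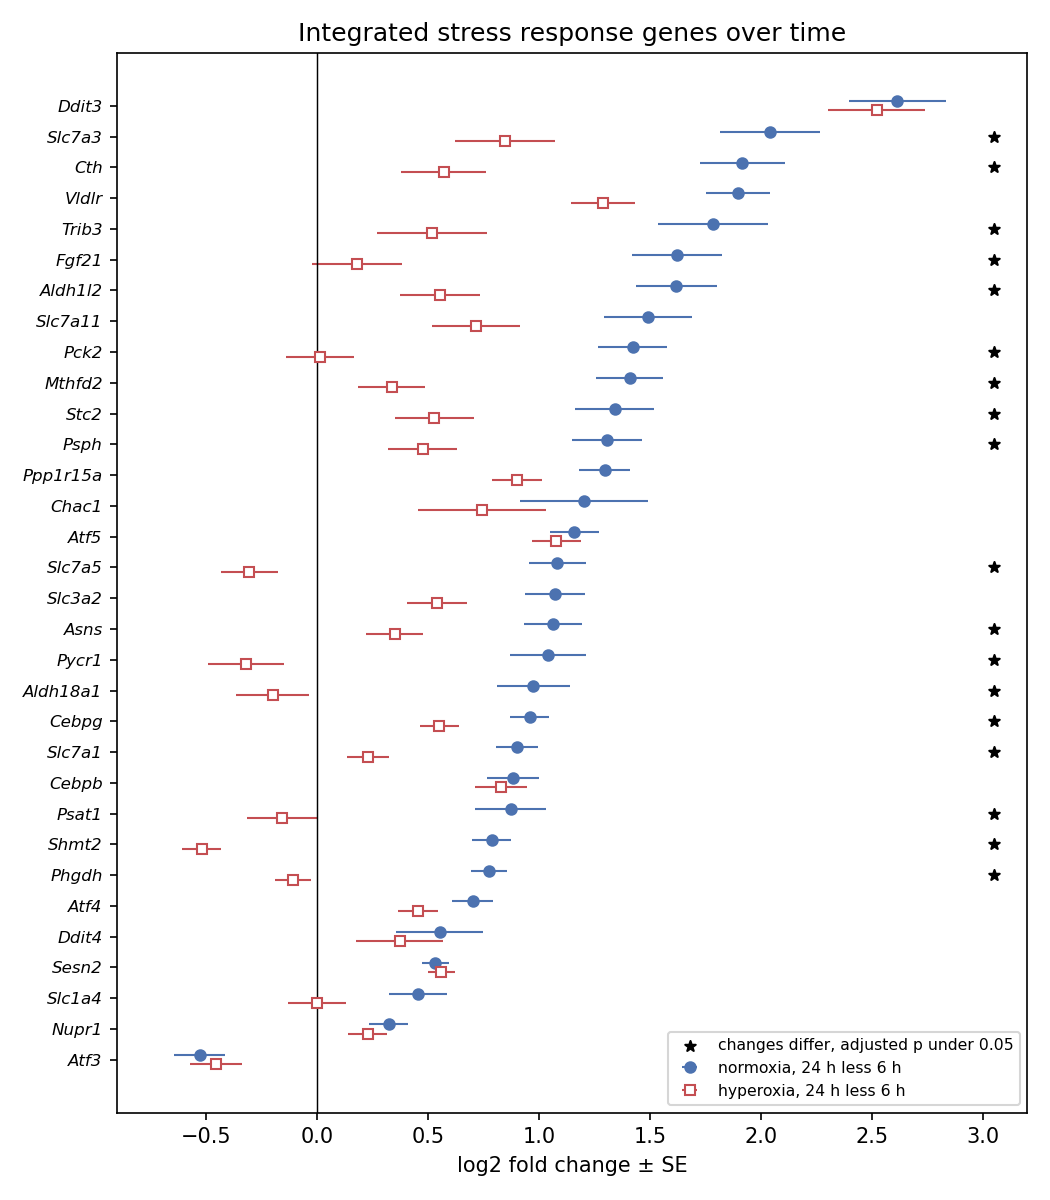
Log2 fold change (24 h less 6 h, points) with its SE (bars) of the 32 integrated stress response genes in normoxia (filled circles) and hyperoxia (open squares), ordered by the change in normoxia. Stars mark the 18 genes whose changes differed (adjusted p under 0.05). Ddit3 has the highest value in both groups, Atf3 lies below 0 in both, and all other normoxia points lie above 0.

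Aminoacyl-tRNA synthetases, which charge tRNAs with amino acids, rose in 16 of 20 cases and fell in none, with a median of 0.60. Sars had 4.88, 4.70, 4.72 and 4.76 at 6 h and 5.92, 5.91, 6.00 and 5.95 at 24 h (1.18 ± 0.08, adjusted p = 8.2e-07). Aars rose by 1.03 ± 0.09, Yars by 1.01 ± 0.09 and Wars by 0.93 ± 0.10. Kars (0.02 ± 0.09), Qars (-0.13 ± 0.07) and Farsa (-0.01 ± 0.05) were not called, although Farsa rose with the array median as the scale (0.20, limma adjusted p = 0.00532). For 13 of the 20 the hyperoxia change was lower, against 5.63% of all genes. On the spike-in scale 10 of the 20 rose.

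The ER chaperones gave a mixed picture. Of 25 genes of the unfolded protein response, 7 rose and 5 fell. Hspa5, the chaperone BiP, had 7.15, 7.13, 7.04 and 7.10 at 6 h and 7.17, 7.19, 7.29 and 6.99 at 24 h (0.06 ± 0.08, adjusted p = 0.602), and the Hsp90b1 change was 0.02 ± 0.07. Their direction depended on the scale. Both were called as fallen with quantile normalization, Hspa5 at -0.21 (limma adjusted p = 0.0251) and Hsp90b1 at -0.22 (limma adjusted p = 0.0198), and as risen with the array median as the scale (0.26 and 0.23). Herpud1, of the ER degradation machinery, rose by 0.80 ± 0.14, the sensor genes Atf6 and Ern1 by 0.52 ± 0.09 and 0.51 ± 0.10, and the disulphide isomerase gene P4hb by 0.47 ± 0.11. The fallers were Derl3 (-0.85 ± 0.19), Manf (-0.38 ± 0.08), Creld2 (-0.35 ± 0.07), Sdf2l1 (-0.27 ± 0.10) and Pdia3 (-0.23 ± 0.07). In hyperoxia 17 of the 25 fell and 1 rose, against 27.4% and 25% of all genes. By the test 14 changes were lower than in normoxia, against 5.63% of all genes. The ER stress response element, CCAAT and CCACG with 9 bases of any kind between them, searched over the same 250 bases on both strands, was found in 9 of 21 members with an entry (42.9%) and in 0.130% of all genes. It is shown for Hspa5, which was not called, and for Creld2, which fell, both on the plus strand and with the match in capitals.
Hspa5, chr2:34771995-34772073, plus strand: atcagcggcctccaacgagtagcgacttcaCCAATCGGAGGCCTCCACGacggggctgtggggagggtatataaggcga
Creld2, chr15:88819490-88819568, plus strand: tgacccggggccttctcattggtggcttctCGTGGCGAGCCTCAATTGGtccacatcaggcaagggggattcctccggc

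Chemokine genes that changed were mostly lower at 24 h. Of 22 chemokine ligands tested, 8 fell, all at least 2-fold, and 2 rose, with a median of -0.61. Ppbp, a neutrophil-attracting chemokine, had 0.80, 0.55, 2.35 and 1.56 at 6 h and -4.04, -3.63, -3.66 and -2.26 at 24 h, a change of -4.71 ± 0.51 or 26.2-fold (adjusted p = 1.78e-05). Cxcl5, another of that class, had -0.69, -0.41, 0.83 and 0.34 and then -3.98, -4.71, -4.50 and -3.48 (-4.18 ± 0.48, adjusted p = 2.71e-05). In both the 6 h replicates 3 and 4 were the highest, and the times did not overlap. Cxcl10, an interferon-induced attractant of T cells, had 2.22, 2.46, 3.36 and 3.14 and then -0.17, 0.45, 0.30 and 0.07 (-2.63 ± 0.34, adjusted p = 5.83e-05).

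The risers were Cxcl12, the homeostatic chemokine made by stromal cells, with 5.95, 6.08, 5.83 and 5.86 and then 6.59, 6.42, 6.55 and 6.59 (0.61 ± 0.08, adjusted p = 4.54e-05), and Cxcl11 by 0.30 ± 0.06. The monocyte attractants Ccl2 (-0.35 ± 0.21) and Ccl7 (0.24 ± 0.14) were not called. No chemokine change differed between the oxygen groups, and Cxcl2 was not tested. An NF-kB site, GGGA and TCC with 3 bases of any kind between them, was found before the start of 5 of 19 chemokine genes with an entry (26.3%) and of 4.41% of all genes, searched as above. It is shown in the promoters of Cxcl1, which fell by 1.37 ± 0.40, and Cxcl10, with the match in capitals. In Cxcl1 the capitals cover 2 overlapping matches shifted by 1 base.
Cxcl1, chr5:90891144-90891214, plus strand: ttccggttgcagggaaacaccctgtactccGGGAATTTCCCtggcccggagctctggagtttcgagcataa
Cxcl10, chr5:92349009-92349078, minus strand: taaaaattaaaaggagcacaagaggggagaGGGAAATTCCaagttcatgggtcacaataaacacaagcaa

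Cytokine genes divided. Of 24, 9 fell and 4 rose. Tnf, the early inflammatory cytokine, had -1.84, -1.94, -1.05 and -1.06 at 6 h and -4.71, -4.82, -4.26 and -3.56 at 24 h (-2.86 ± 0.33, adjusted p = 2.57e-05). Csf2, which encodes GM-CSF and is made by type II cells for alveolar macrophages, had 2.14, 2.19, 3.23 and 2.84 and then 0.07, -0.20, 0.01 and 0.79 (-2.43 ± 0.32, adjusted p = 6.53e-05). Csf3, for the granulocyte factor, fell by 2.97 ± 0.37 and Il23a by 2.01 ± 0.23, each well above background on 3 of 4 arrays at 24 h. The changes with normexp background correction were -1.53 for Tnf, -2.37 for Csf2, -1.32 for Csf3 and -0.55 for Il23a. The risers were Lcn2 (1.20 ± 0.20), Tnfsf15 (1.06 ± 0.31), Nos2 (0.55 ± 0.07) and Csf1 (0.46 ± 0.09). Il6 had 3.25, 3.87, 2.99 and 3.31 and then 3.34, 3.12, 3.16 and 3.24, a change of -0.14 ± 0.16 with overlapping groups that was not called. Lcn2 was the member whose hyperoxia change was lower (-0.12 there, difference adjusted p = 0.00662).

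**Figure D4:**
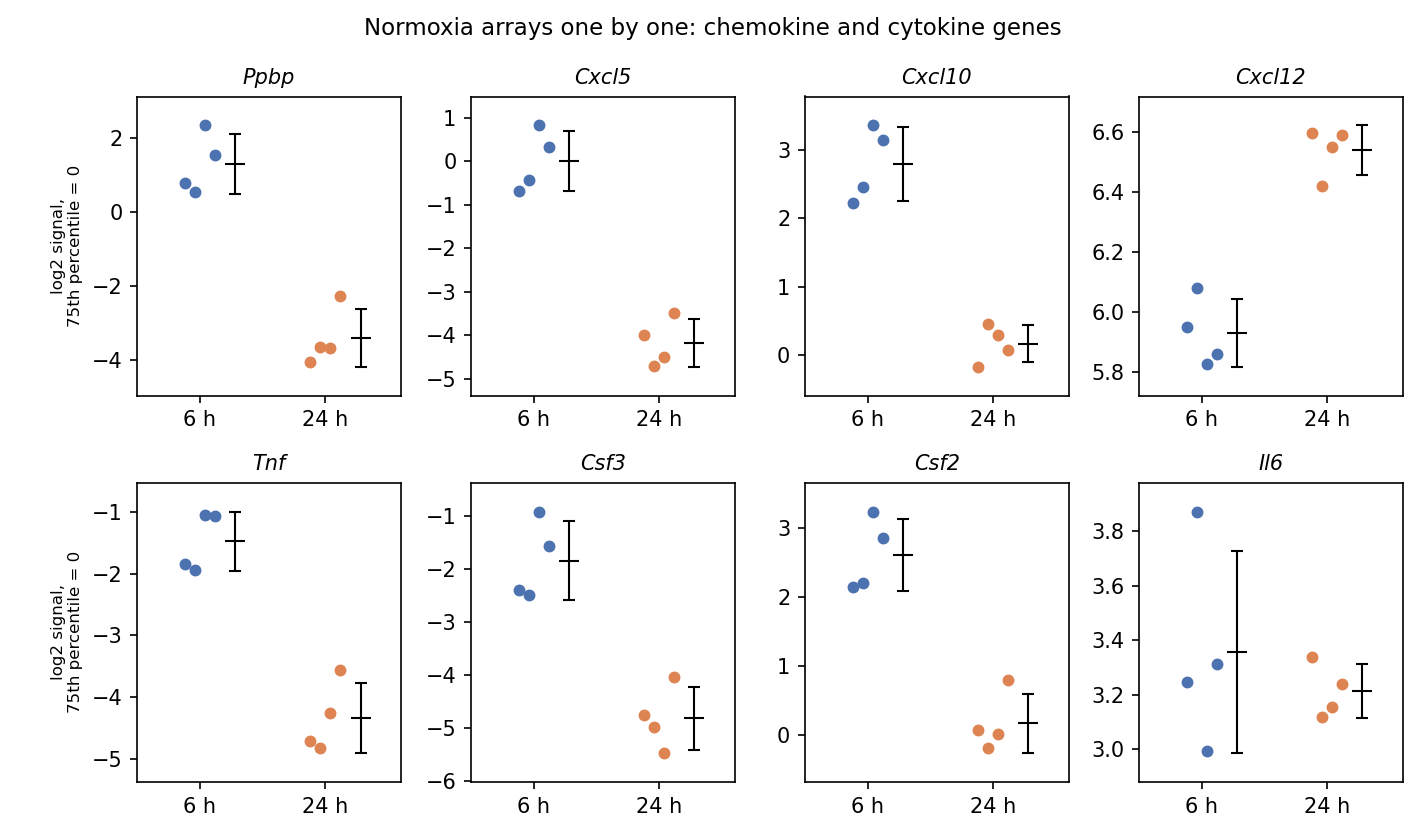
Log2 signal of 8 chemokine and cytokine genes on each of the 8 normoxia arrays (dots, replicates 1 to 4 from left to right at each time), with the group mean and SD as bars. Ppbp, Cxcl5, Cxcl10, Tnf, Csf3 and Csf2 lie lower at 24 h and Cxcl12 higher without overlap, while the groups of Il6 overlap, and the vertical axes differ between panels.

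Of 18 genes for NF-kB subunits, adaptors and inhibitors, 13 fell and 1 rose, with a median of -0.32. Traf1 fell by 2.17 ± 0.25 and the feedback inhibitors Tnfaip3 (A20), Tnip3 and Nfkbie changed by -1.43 ± 0.25, -1.43 ± 0.22 and -0.96 ± 0.16. Nfkbiz rose by 0.38 ± 0.10, and the subunit gene Rela, at 5.51 to 5.69 and 5.60 to 5.61, was not called (-0.03 ± 0.10). With the array median as the scale 7 of the 18 fell. Interferon-stimulated genes had 7 rises and 8 falls among 30, and Mx1 fell by 3.01 ± 0.51 (above background on 1 array at 24 h, and -1.15 with normexp) and Parp14 by 1.25 ± 0.20, while Gbp3 rose by 0.76 ± 0.17 and Ifit3 by 0.71 ± 0.18. Of 29 immediate-early genes, which respond within minutes to growth factors or stress, 9 fell and 2 rose. Fos went from -0.01, 0.10, 0.17 and 0.26 to -1.07, -0.97, -1.40 and -1.08 (-1.26 ± 0.11, adjusted p = 5.79e-06), Ier3 fell by 1.31 ± 0.13 and Egr1 by 0.85 ± 0.13. Klf4, a factor of cell cycle arrest and differentiation, rose from 0.89, 0.81, 0.31 and 0.52 to 2.79, 2.48, 2.82 and 2.66 (2.06 ± 0.17, adjusted p = 3.45e-06), and Klf2 rose by 1.08 ± 0.17.

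Cell cycle genes were slightly lower. Of 30 genes of mitosis, 21 fell, none at least 2-fold, and none rose, with a median of -0.38. Of 30 DNA replication genes, 19 fell and none rose, with a median of -0.37. Cdc6, which loads the replicative helicase, had 0.22, 0.60, 0.41 and 0.42 and then -0.27, -0.61, -0.65 and -0.22 (-0.85 ± 0.11, adjusted p = 5.87e-05). Mcm5, a helicase subunit, fell by 0.68 ± 0.11, and the mitotic genes Nusap1 and Aurkb by 0.82 ± 0.18 and 0.66 ± 0.14. The proliferation marker Mki67 had 3.94, 4.41, 4.00 and 4.16 and then 3.97, 3.66, 3.43 and 4.12, with overlapping groups and no call (-0.33 ± 0.16, adjusted p = 0.114). With the array median as the scale 8 of the mitosis genes and 7 of the replication genes fell. In hyperoxia all 30 of each list fell over the same interval, against 27.4% of all genes, with medians of -2.44 and -1.78. The changes of 29 of each differed, against 12.3% of all genes, as Mki67 at -3.20 did (limma difference adjusted p = 2.11e-06).

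The regulators of the cycle moved separately. Cdkn2a, an inhibitor known to accumulate in cultured cells, rose from 1.71, 1.57, 1.64 and 1.37 to 2.74, 3.18, 2.79 and 2.65 (1.27 ± 0.18, adjusted p = 0.000129), and its neighbour Cdkn2b rose by 0.51 ± 0.14. Ccnd2 rose by 1.16 ± 0.11 and Ccnd1 fell by 1.07 ± 0.18, both cyclins of the D type that start the cycle. Cdkn1c, an imprinted inhibitor, fell by 2.34 ± 0.40 on levels of 2.10, 2.22, 3.09 and 2.67 and then 0.62, -0.81, -0.07 and 0.98. Of 30 p53 targets, 12 rose and 7 fell, and 20 had a higher change in hyperoxia, against 6.62% of all genes. Bbc3 (PUMA) rose by 0.72 ± 0.12 and Eda2r by 0.90 ± 0.21, while Perp, a desmosomal p53 target, fell by 0.91 ± 0.19 and Ptp4a3 by 0.94 ± 0.16.

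Matrix genes rose. Of 21 collagen genes, 14 rose and none fell, with a median of 0.70, and 10 to 15 rose under the other scales. Col4a1, of the basement membrane, had 5.31, 4.93, 4.43 and 4.90 at 6 h and 5.97, 6.40, 6.34 and 5.87 at 24 h (1.26 ± 0.23, adjusted p = 0.000619), and its partner Col4a2, which lies beside it, rose by 1.23 ± 0.22. Col14a1, of fibrillar matrix, rose by 1.53 ± 0.25. Col7a1 (0.00 ± 0.18) and Col6a1 (0.11 ± 0.37) were not called. Of 27 genes for matrix glycoproteins and collagen cross-linking, 19 rose and 1, Tnn, fell (-1.34 ± 0.48). Nid1, a basement membrane linker, went from 4.12, 4.36, 3.71 and 3.89 to 5.35, 5.28, 5.20 and 5.22 (1.24 ± 0.11, adjusted p = 6.24e-06) and Loxl2, a lysyl oxidase, from 6.33, 6.06, 5.78 and 5.89 to 7.30, 7.18, 7.15 and 7.38 (1.23 ± 0.11, adjusted p = 5.3e-06). Both were without overlap.

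Matrix proteases and their inhibitors had 9 rises and 6 falls among 25. Mmp2 rose by 1.49 ± 0.28, Mmp9 by 1.47 ± 0.19 and the inhibitor gene Timp3 by 0.99 ± 0.18. Mmp3 fell by 2.78 ± 0.34, from 1.31, 2.63, 0.83 and 1.74 to -0.99, -1.58, -1.47 and -0.55, and Mmp8 by 1.43 ± 0.35. Of 22 genes of TGF-beta signalling, 7 rose and 2 fell. Snai2, a repressor of epithelial genes, rose by 1.51 ± 0.19, from 0.84 to 1.01 at 6 h to 2.19 to 2.58 at 24 h. Zeb2, another such repressor, rose by 0.52 ± 0.09, and the matricellular target Ccn2 was not called (0.08 ± 0.08), but was called as fallen with quantile normalization (-0.24, limma adjusted p = 0.0169) and as risen with the array median as the scale (0.29, limma adjusted p = 0.0202).

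Markers of fibroblasts and smooth muscle moved with the matrix genes. Of 18, 10 rose and 1 fell, with a median of 0.50, and all 18 were measurable on these arrays of type II cells. Acta2, smooth muscle actin, had 8.01, 8.01, 7.68 and 7.77 and then 8.66, 8.59, 8.86 and 8.74 (0.84 ± 0.13, adjusted p = 0.000175). Des rose by 1.46 ± 0.23, Thy1 by 1.12 ± 0.16, Cnn1 by 1.11 ± 0.11 and Col1a2 by 0.94 ± 0.12. Fgf10, a mesenchymal growth factor for the epithelium, fell by 1.38 ± 0.25. With normexp background correction Fgf10 was not called (-0.24, limma adjusted p = 0.124). The fibroblast markers Dcn (-0.03 ± 0.35), Pdgfrb (0.23 ± 0.20) and Pdgfra (-0.24 ± 0.21) were not called. The summed linear signal of the list, relative to the 75th percentile, ran from 1160 to 1390 for the 6 h arrays and from 2000 to 2250 for the 24 h arrays. The part of mesenchymal cells in the rise of the matrix genes was not tested. Des was the member that rose in normoxia with a lower change in hyperoxia (-0.03 there, difference adjusted p = 0.00679).

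Markers of blood and vessel cells gave mixed counts. Of 16 macrophage markers, 7 fell, among them Ear2 (-1.37 ± 0.42), Fabp4 (-1.21 ± 0.38) and Mrc1 (-1.17 ± 0.36), and 1, Itgam, rose (1.49 ± 0.15). With normexp Fabp4 (-0.58, limma adjusted p = 0.0823) and Mrc1 (-0.31, limma adjusted p = 0.0967) were not called. Both also lost the call with quantile normalization and with the authors' deposited value table. The list's sum rose from 30 to 34.5 at 6 h to 58.4 to 74.5 at 24 h through the brightest Itgam probe, while the gene's other 2 probes fell. C1qa, C1qc and Msr1 were not tested. Of 12 neutrophil markers 6 fell and 3 rose. S100a8, a calgranulin, fell by 3.59 ± 0.39 (above background on 1 array at 24 h, and -1.18 with normexp) and Ltf, lactoferrin, which secretory epithelium makes too, by 2.89 ± 0.34. Elane rose by 0.90 ± 0.14. Cxcr2, Retnlg and Ngp were not tested, and the sums were 52.0 to 66.0 and 62.7 to 68.8. Endothelial markers had 5 rises and 2 falls of 14, with sums of 40.3 to 42.2 and 50.7 to 58.2 and with Cdh5 and Emcn not tested. Lymphocyte markers had 1 rise and 2 falls of 13 (sums 15 to 16.4 and 16.2 to 17.6), mast cell and basophil markers 2 and 2 of 6 (sums 1.42 to 2.00 and 1.59 to 3.13), and mesothelial markers 2 and 2 of 9 (sums 256 to 324 and 170 to 217). Msln, mesothelin, fell by 0.95 ± 0.17. The bright keratin gene Krt19, whose fall is given above, is also on the mesothelial list. Its fall enters the mesothelial sums, so their drop need not hold for the other members.

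In the metabolic and housekeeping lists the number of rises depended on the scale. Of 30 glycolysis and HIF target genes, 20 rose and 1, Car9, fell (-0.44 ± 0.16), with a median of 0.35, but under quantile normalization 9 rose and on the spike-in scale 5. Eno2, an enolase, stood out with -1.34, -1.27, -1.69 and -1.74 and then 0.29, 0.28, 0.39 and 0.40 (1.85 ± 0.15, adjusted p = 2.68e-06). Ero1a rose by 0.91 ± 0.13 and Bnip3, a mitophagy receptor induced by HIF, by 0.85 ± 0.19. Of 30 lysosome and autophagy genes, 23 rose and 1 fell, with a median of 0.37, 19 under quantile normalization and 6 on the spike-in scale. Gaa, the lysosomal glucosidase, rose by 0.89 ± 0.09 with 1 of its 3 probes falling, Hexa by 0.77 ± 0.12 and Sqstm1 (p62), also a stress target, by 0.75 ± 0.16. Of 30 cytosolic ribosomal protein genes, 28 rose, with changes of 0.12 to 0.42 and a median of 0.31. Under quantile normalization 1 rose and 3 fell, and on the spike-in scale none rose, so no direction is given for them. Respiratory chain genes had 4 rises and 1 fall of 30, and proteasome subunits 1 and 1 of 26. Under quantile normalization 13 proteasome genes fell.

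The oxidant defence lists had no common direction. Of 31 NRF2 targets, 8 rose and 4 fell in normoxia, while in hyperoxia 24 rose, against 25% of all genes. Gsta4, a glutathione transferase, fell by 0.76 ± 0.23 in normoxia and changed by 2.01 in hyperoxia (difference adjusted p = 5.5e-05). Gsta2, of a family with near-identical copies, fell by 2.73 ± 0.45 and Osgin1 by 0.83 ± 0.15, while Ftl1, ferritin light chain, rose by 0.50 ± 0.08. Cat, catalase, rose from 1.06, 1.00, 1.15 and 0.99 to 2.20, 2.29, 2.70 and 2.43 (1.36 ± 0.12, adjusted p = 4.62e-06), and Sod3, the extracellular superoxide dismutase, fell by 2.07 ± 0.31. Of 17 xenobiotic enzymes 7 fell and 2 rose, with Cyp4b1 falling by 2.24 ± 0.28 and Fmo5 rising by 1.00 ± 0.18. Hspa1a, the inducible heat shock protein, fell by 1.07 ± 0.10 in normoxia and changed by 0.25 in hyperoxia (difference adjusted p = 2.52e-05).

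Of 18 circadian genes, 8 rose and 1 fell. Ciart, a repressor of the clock, went from -3.23, -3.51, -3.17 and -3.36 to -1.68, -1.63, -1.80 and -1.81 (1.59 ± 0.17, adjusted p = 1.39e-05), and Nfil3 and Dbp, opposed output factors, rose by 0.92 ± 0.09 and 0.91 ± 0.14. Dbp rose further in hyperoxia, by 2.41 (difference adjusted p = 0.000227). The times are 18 h apart, and with only 2 of them no rhythm can be read. Of 14 glucocorticoid-responsive genes, 7 rose and 4 fell. Tsc22d3 (GILZ) rose by 1.02 ± 0.08 and Klf9 by 0.66 ± 0.09, whereas Sgk1 and Dusp1 fell by 0.75 ± 0.15 and 0.75 ± 0.17.

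Signalling pathways had rises and falls side by side. Of 24 Wnt pathway genes, 6 fell and 5 rose. Wnt7a had 0.56, 0.68, 1.41 and 1.13 at 6 h and -1.58, -1.10, -1.09 and -0.80 at 24 h (-2.09 ± 0.23, adjusted p = 1.81e-05), Wnt10a fell by 2.43 ± 0.37 and Wnt7b by 1.38 ± 0.18. The risers included the inhibitor genes Dkk3 (1.00 ± 0.16), Dkk2 (0.73 ± 0.15) and Notum (0.83 ± 0.16). In the EGF family 7 of 21 fell and 5 rose, the ligands Btc and Tgfa by -1.41 ± 0.25 and -1.41 ± 0.16. With normexp background correction these 2 changes were -0.88 and -0.36. Egfr itself (0.10 ± 0.11) was not called. Notch genes had 4 rises and 6 falls of 16, with Notch3 rising by 0.87 ± 0.11 and the ligand gene Dll4 falling by 1.34 ± 0.19. With normexp Dll4 was not called (-0.23, limma adjusted p = 0.0759). In the YAP and TAZ pathway 6 of 19 rose and 5 fell, Tead4 by 1.59 ± 0.23 downward and Ankrd1 by 0.44 ± 0.11 upward. The medians of the EGF, Notch, Wnt and YAP lists turned sign under at least 1 other scale.

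**Figure D5:**
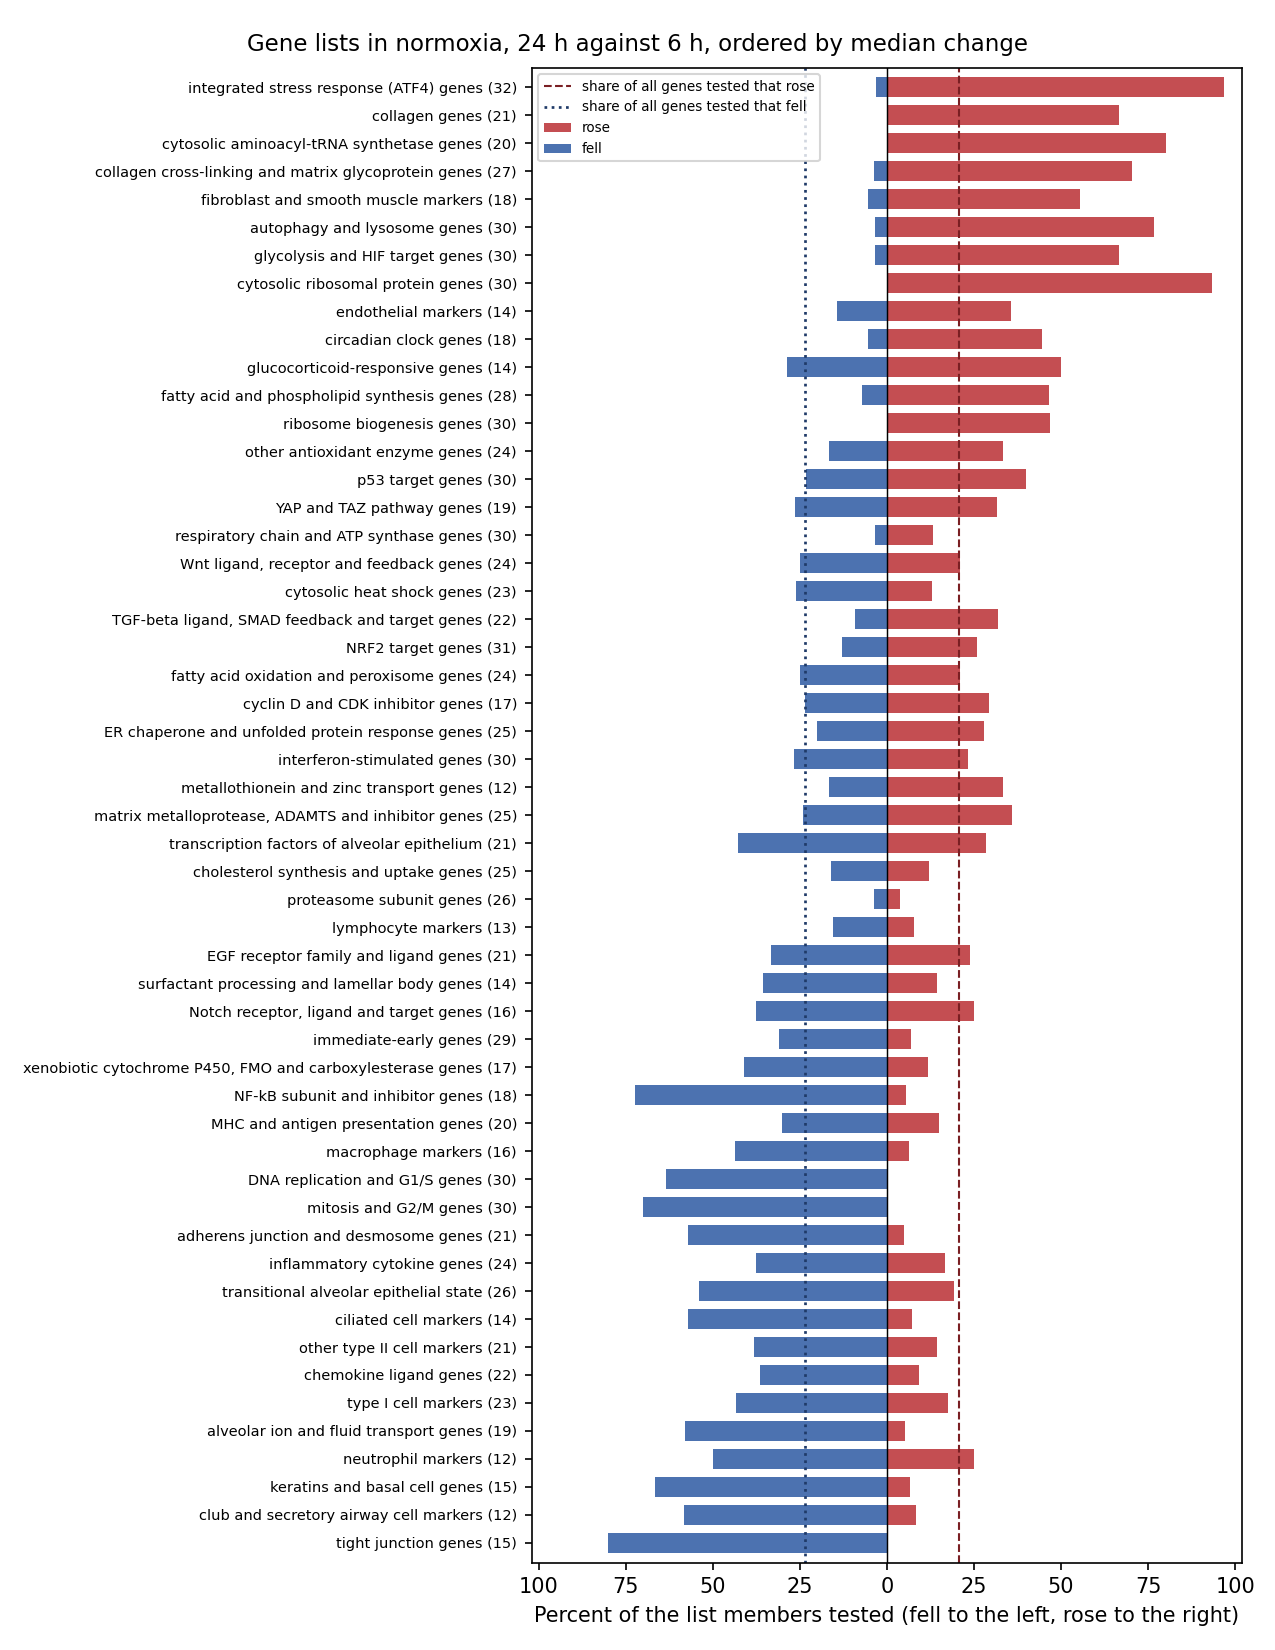
Percent of tested members that rose (right, red) and fell (left, blue) for each list with at least 10 tested members (number in brackets), ordered by median change, with the shares of all tested genes that rose (20.6%, dashed) and fell (23.5%, dotted). The integrated stress response lies at the top and the tight junction genes at the bottom.

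Among all genes with a RefSeq symbol, the 15 largest rises and 15 largest falls without overlap were listed by size. They were picked by the normoxia change, which the difference of time changes subtracts. Picking by size thus favours a lower hyperoxia change among the rises and a higher one among the falls. Car6, a secreted carbonic anhydrase, rose most, from -1.28, -2.10, -1.98 and -2.67 to 1.83, 1.52, 2.52 and 1.89. The groups were over 2 units apart, and the change of 3.95 ± 0.39 was 15.4-fold (adjusted p = 9.73e-06). In hyperoxia it was 1.99, a lower change by the test (adjusted p = 0.0304). The unnamed transcript E330020D12Rik followed at 2.85 ± 0.21, with levels of -0.88 to -0.45 and 1.89 to 2.48, and 2.89 in hyperoxia. Adra2a, an adrenergic receptor gene, rose by 2.5 ± 0.18, the glucocorticoid-induced factor Klf15 by 2.48 ± 0.31 and Fam107a, a stress-induced actin regulator, by 2.45 ± 0.20. Their changes in hyperoxia were 2.30, 2.61 and 2.56.

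Cyb5r2, a reductase gene, rose by 2.53 ± 0.21 and by 0.54 in hyperoxia (difference adjusted p = 0.00057). The changes of Cass4 (2.49 ± 0.30), Angptl6 (2.38 ± 0.16) and Hsd17b1 (2.35 ± 0.24) were lower in hyperoxia too, at 0.66, 1.44 and 1.00. Gabrb1, a subunit of the GABA receptor, and Atp2b2, a calcium pump, rose by 2.44 ± 0.29 and 2.42 ± 0.23. Try4, Try5 and Mcpt1, at 2.54 ± 0.46, 2.46 ± 0.42 and 2.32 ± 0.40, belong to serine protease families of near-identical copies, and their probes may share signal. With Ddit3 these are the 15.

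Beside Scgb1a1, Ppbp, Cxcl5, Csf3, Ltf and Tnf, the 15 largest falls held epithelial genes and others. Bcl2l15, a relative of the apoptosis regulators, had 0.14, 0.83, 1.65 and 1.53 and then -2.69, -3.29, -3.01 and -2.25 (-3.85 ± 0.38, adjusted p = 1.03e-05), with all 3 of its probes falling. Anxa10, an annexin of gastric-type epithelium, fell by 3.46 ± 0.54 and Tff1, a trefoil peptide gene of mucous epithelium, by 2.95 ± 0.50. Cwh43 fell by 3.28 ± 0.27 and by the same 3.28 in hyperoxia. Ptpn22, a phosphatase of immune cells, fell by 3.02 ± 0.42 and Jaml, a junction adhesion molecule, by 2.93 ± 0.29. Acp7 (-2.96 ± 0.35), Frmpd1 (-2.89 ± 0.27) and Insm1, a neuroendocrine factor (-2.86 ± 0.43), complete the 15. None of the 15 changes differed in hyperoxia by the test.

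Some genes passed background at 1 time only, which gives a lower bound in place of a fold. Pglyrp1, a peptidoglycan-binding defence protein gene, was well above background on 4 arrays at 6 h and 0 at 24 h, at least 9.03-fold lower, with 6 h levels of -4.03, -4.11, -2.86 and -1.29. Without replicate 4 that bound was 5.98-fold. Gcnt3, a mucin glycosyltransferase gene, was at least 6.49-fold lower, Pnoc at least 5.49-fold and Cilp at least 5.20-fold. With normexp the changes of these genes were smaller, -1.05 for Pglyrp1, -0.76 for Gcnt3 and -0.33 for Cilp, and Pnoc was not called (-0.63, limma adjusted p = 0.16). In the other direction Gm19410 was at least 3.42 higher on the log2 scale, Tm6sf1 at least 7.90-fold, Nr1i3 at least 4.38-fold, Dhtkd1 at least 4.02-fold and Ano4 at least 3.59-fold. The Nr1i3 levels at 24 h were -5.05, -1.64, -4.56 and -4.74, and without replicate 2 that bound was 2.54-fold. With normexp the rises of these genes were between 0.80 (Ano4) and 1.3 (Gm19410).

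Across all genes that rose in normoxia, 718 of 5237 had a change that differed in hyperoxia, for 430 a lower one. Of the 5980 that fell, 828 differed, for 476 with a higher change, against 12.3% of all genes tested. The time changes in both oxygen groups rest on the same pair of slides, and for a change seen in both, slide and time cannot be told apart. Normoxia and hyperoxia arrays sat in separate rows of the slides, which leaves oxygen and slide row confounded in the difference.

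Some calls were lost when a single array was left out, for several genes whichever of a number of arrays it was. The changes in those fits follow. Bpifa1 was not called without 6 h replicate 3 (-2.33). Car9 was not called without 6 h replicates 3 or 4 or 24 h replicates 2 or 3 (-0.41 to -0.33). Cdkn1a was not called without 6 h replicates 2, 3 or 4 or 24 h replicates 1, 2 or 4 (0.32 to 0.40). Fabp4 was not called without 6 h replicate 2 or 24 h replicate 2 (-1.06 to -0.79). Lyz1 was not called without 24 h replicate 1 (-1.02). Pdpn was not called without 6 h replicates 3 or 4 or 24 h replicates 1, 2, 3 or 4 (0.17 to 0.27). Sdf2l1 was not called without 6 h replicates 1, 2 or 4 or 24 h replicates 1, 3 or 4 (-0.27 to -0.21). Tnn was not called without 6 h replicates 1, 2 or 3 or 24 h replicates 2 or 3 (-1.41 to -0.85). Vegfa was not called without 6 h replicates 1, 3 or 4 or 24 h replicates 1, 2 or 4 (0.27 to 0.37).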

How the data were processed

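Total RNA of 16 samples was measured on one-colour Agilent arrays, 4 per group. Spot intensities were deposited as Feature Extraction 10.7.3.1 output, per the file headers and the submitters' processing notes, background-subtracted by that software. The authors' deposited value table is on a log2 scale, as its values show against the scanner signals; its normalization is not given in the sources used here, and it served as an alternative. Here the log2 processed signal was taken less each array's 75th percentile over non-control probes, spots of a probe were averaged, and a gene was represented by its brightest probe. A gene was tested if, in any group, 3 or more of the 4 arrays had it well above background. limma 3.58.1 (R 4.3.3) was fitted to all 16 arrays with 4 group means, tested on simulated data, and p-values were Benjamini-Hochberg adjusted over all genes. The difference of time changes was a contrast of that fit. Accessions and symbols were matched to RefSeq (27428 probes by accession, 3483 by symbol, 507 by older symbol), and 24263 probes kept the file's name. Arrays have no read depth, so their number limits the precision.

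The members and the 56 gene lists were chosen with earlier results of these data known. Named genes were the 15 largest rises and 15 largest falls, the 5 largest lower bounds each way, and per list up to 4 risen and 4 fallen members, those against the list's majority and up to 3 uncalled members of highest level. Asns, Atf4, Atf5, Chac1, Cxcl1, Ero1a, Fgf21, Mthfd2, Nkx2-1, Phgdh, Ppp1r15a, Psat1, Psph, Pycr1, Shmt2, Slc7a5 and Trib3 were added after their values were seen. A lower bound sets the mean of the group above background against the dimmest signal well above background, or the probe's own where higher, in the other. Alternatives covered background correction, scale, filter, probes, moderation, array weights, the replicate block and leaving out each array. A result withheld for evaluation is not reported here.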

Additional observations from a re-analysis of the deposited data

Results flagged for a closer look

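For 59 of the 256 named genes the time change differed between hyperoxia and normoxia by limma's test of the difference (adjusted p under 0.05). Over all genes tested the share was 12.3%. Many of the named genes were picked by their normoxia change, which the difference subtracts, so their count is a description. The values are hyperoxia less normoxia changes on the log2 scale. The lowest differences were those of Mki67 (-2.87), Cdc6 (-2.47), Aurkb (-2.23), Cyb5r2 (-2), Car6 (-1.96), Mcm5 (-1.87), Cass4 (-1.84), Des (-1.5), Nusap1 (-1.46). Next came Fgf21 (-1.44), Slc7a5 (-1.39), Pycr1 (-1.36), Cth (-1.35), Hsd17b1 (-1.35), Lcn2 (-1.32), Shmt2 (-1.31), Sftpb (-1.26), Trib3 (-1.26). Smaller negative differences were those of Derl3 (-1.24), Slc7a3 (-1.2), Mthfd2 (-1.07), Psat1 (-1.03), Angptl6 (-0.939), Phgdh (-0.881), Lamp3 (-0.872), Yars (-0.843), Elovl6 (-0.84). Close to these lay Psph (-0.832), Muc1 (-0.821), Wars (-0.811), Herpud1 (-0.716), Sdf2l1 (-0.714), Asns (-0.713), Creld2 (-0.684), Hspa5 (-0.632), Aars (-0.564). The remaining negative ones were Emp2 (-0.563), Hsp90b1 (-0.555), Sars (-0.542), Manf (-0.54), Etv5 (-0.498), Chka (-0.427). For Tm6sf1 (-2.95), Gm19410 (-2.07), Dhtkd1 (-1.22) no 6 h normoxia array was well above background, so these differences are fitted values and not measured sizes. The hyperoxia change was higher for Gsta4 (2.77), Dbp (1.5), Fgf10 (1.4), Perp (1.38), Hspa1a (1.31), Dusp1 (1.29), Cldn3 (1.22). It was higher too for Notch3 (1.1), Ifit3 (1.06), Egr1 (0.973), Ptp4a3 (0.935), Ier3 (0.906), Mdm2 (0.859), Cdkn1a (0.723).

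In 20 of 512 sets of 4 arrays looked at, 1 array stood apart from the other 3, its gap to the nearest being past Dixon's 95% critical value. Chance alone marks about 1 set in 20. In the 6 h group the gap over the range was 0.866 for Ccnd2 (replicate 1 highest), 0.858 for Cyb5r2 (replicate 1 highest), 0.94 for Hopx (replicate 1 lowest), 0.889 for Pnoc (replicate 2 highest), 0.901 for Pycr1 (replicate 1 highest), 0.967 for Sftpd (replicate 1 lowest), 0.859 for Shmt2 (replicate 1 highest). In the 24 h group it was 0.922 for Atf6 (replicate 4 lowest), 0.898 for Ccl7 (replicate 1 highest), 0.854 for Mcm5 (replicate 3 lowest), 0.862 for Mcpt1 (replicate 1 highest), 0.909 for Mmp8 (replicate 1 highest), 0.859 for Nos2 (replicate 4 lowest), 0.857 for Nr1i3 (replicate 2 highest), 0.849 for Nusap1 (replicate 3 lowest), 0.865 for Ppp1r15a (replicate 2 lowest), 0.867 for Ptpn22 (replicate 4 highest), 0.885 for Scgb1a1 (replicate 4 highest), 0.836 for Tjp1 (replicate 3 lowest), 0.855 for Tjp3 (replicate 4 highest).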

How the results depend on the processing

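Time could not be separated from slide, so a fit with slide as a block was not possible and was not run. Of the named genes 230 were called, 190 kept the call and direction under every alternative that tested them (21 for 169 genes and 20 for 21 genes, which the filter on all 8 arrays left out) and 39 lost the call under at least 1; Itgam, which rose, turned to -0.43 with the median of its probes. Of the 26 named genes not called, 14 were called under at least 1. With normexp the fold was over 1.5 times smaller for 52 of the 230. Counts of calls moved with the scale. Genes that rose numbered 8512 with normexp, 10101 with the array median and 1157 on the spike-in scale, and genes that fell 3645, 3409 and 7511. At least 2-fold rises numbered 283, 847 and 272. At least 2-fold falls numbered 479, 1082 and 2508, and 745 over genes above background on all 8 normoxia arrays, where fewer genes were tested. Changes that were higher and lower in hyperoxia numbered 1074 and 402 on the spike-in scale and 3137 and 2603 with array weights. Apart from the scale and the filter, the cause was not tested. Leaving out 1 array in turn gave 4321 to 4799 rises, 5053 to 5641 falls, 405 to 522 and 1511 to 1785 at least 2-fold, and 1321 to 1570 higher and 1159 to 1349 lower changes in hyperoxia. Same-numbered arrays of the 2 times had correlations of 0.063, 0.066, 0.004 and 0.028 after removal of the group means. Differently numbered arrays had -0.117 to 0.144. The labels do not say whether the numbers pair the arrays, and these few correlations cannot decide it. With the replicate number as a block 5436 genes rose and 6239 fell, and the 230 named calls were kept. With normexp background correction the sign turned for EGF receptor family and ligand genes (median 0.0679), Notch receptor, ligand and target genes (median 0.18), lymphocyte markers (median 0.255). With quantile normalization the sign turned for cytosolic heat shock genes (median -0.0719), NRF2 target genes (median -0.0459), other antioxidant enzyme genes (median -0.0221), respiratory chain and ATP synthase genes (median -0.0375), Notch receptor, ligand and target genes (median 0.0307), lymphocyte markers (median 0.125), Ccn2 (change -0.239), Cxcl11 (change -0.000893), Hsp90b1 (change -0.221), Hspa5 (change -0.212). With array median as the scale the sign turned for surfactant processing and lamellar body genes (median 0.0756), EGF receptor family and ligand genes (median 0.118), Notch receptor, ligand and target genes (median 0.0297), lymphocyte markers (median 0.142), Farsa (change 0.199). With E1A spike-in scale the sign turned for fatty acid and phospholipid synthesis genes (median -0.0111), p53 target genes (median -0.0941), ribosome biogenesis genes (median -0.022), cytosolic heat shock genes (median -0.12), NRF2 target genes (median -0.141), other antioxidant enzyme genes (median -0.0902), respiratory chain and ATP synthase genes (median -0.111), YAP and TAZ pathway genes (median -0.101). With the authors' deposited value table the sign turned for cytosolic heat shock genes (median -0.0732), NRF2 target genes (median -0.0459), other antioxidant enzyme genes (median -0.0224), respiratory chain and ATP synthase genes (median -0.0386), Notch receptor, ligand and target genes (median 0.0309), lymphocyte markers (median 0.124), Ccn2 (change -0.239), Cxcl11 (change -0.000954), Hsp90b1 (change -0.221), Hspa5 (change -0.212). With no filter on dim probes the sign turned for lymphocyte markers (median 0.232). With well above background on all 8 normoxia arrays the sign turned for Notch receptor, ligand and target genes (median 0.0979), lymphocyte markers (median 0.232). With median of a gene's probes the sign turned for Itgam (change -0.429). The sign is given as turned for a list only where its median was larger than the spread between arrays. In all, the medians of 25 of 56 lists took either sign over the settings, among them the glucocorticoid, Wnt, TGF-beta and fatty acid oxidation lists. Dim genes limit the precision, since fewer probes were above background at 24 h.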
